A study of Homo sapiens with 4 samples.

Results

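MiR-101, miR-26a and miR-26b are microRNAs (miRNAs) described in other work as repressors of EZH2, and their levels were followed in prostate cancer cells given increasing doses of androgen. They were chosen by name: the 3 human match probes, out of 455 for human miRNAs and 1406 probes in all, each read together with the copy of it that carries 2 mismatched bases. The cells were LNCaP, a human prostate adenocarcinoma line with a mutated androgen receptor. All flasks, controls included, first spent 24 hours in medium without androgen, supplemented with 10% charcoal-stripped serum. R1881, an androgen made by synthesis, was then added at 0, 0.1, 1 or 10 nM; the 0 nM cells are the untreated group. For each array 10 µg of total RNA carried the Cy3 dye, the only colour used on these custom CombiMatrix arrays. Each dose had 1 array, so no ratio between arrays has a replicate error, and a single line of cells limits the model. How long R1881 was left on the cells is not stated in the labels.

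EZH2 is the catalytic subunit of Polycomb repressive complex 2, which methylates histone H3 and silences genes, and it is often abundant in advanced prostate cancer. A miRNA lowers the output of mRNAs that pair with its seed, the bases 2 to 8 from its 5′ end. Loss of miR-101 has been described in prostate tumours with high EZH2, and miR-26a has been described as lowering EZH2 in other cell types. The miR-26 genes lie within genes for small phosphatases that act on RNA polymerase II. The array held 0 probes named for EZH2, so the target itself was not measured.

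The mature sequences below, from RefSeq (GRCh38.p14), show which of these miRNAs share a seed, given in capitals. MiR-144 is added because it shares bases 2 to 7, though not base 8, with miR-101.
miR-101: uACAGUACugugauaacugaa
miR-26a: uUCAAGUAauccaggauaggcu
miR-26b: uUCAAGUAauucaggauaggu
miR-144: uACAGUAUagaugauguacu

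MiR-26a and miR-26b carry the same seed, and miR-101 carries another. Over their shared 21 bases miR-26a and miR-26b were identical at 19; counted from the 5′ end of miR-26a, the substitutions to miR-26b were C11U and C21U, and miR-26a has 1 base more. In RefSeq 4 human mature miRNAs share the miR-26 seed, of which miR-26a and miR-26b were on the array, while the miR-101 seed belongs to miR-101 alone. The mature miR-26a sequence comes from MIR26A1 (chr3:37969413-37969434, plus strand), inside the span of CTDSPL, and from MIR26A2 (chr12:57824658-57824679, minus strand), inside that of CTDSP2. MiR-26b comes from MIR26B (chr2:218402657-218402677, plus strand), inside CTDSP1. The miR-101 sequence is held by the hairpins of MIR101-1 (chr1:65058434-65058508, minus strand), inside the span of JAK1, and MIR101-2 (chr9:4850297-4850375, plus strand), inside that of RCL1. A probe for the mature miRNA therefore cannot tell the 2 genes of miR-26a, or the 2 of miR-101, apart. The table used does not say whether these positions are exonic or intronic.

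The arrays differed in ways that bear on every ratio. A probe was taken as detected when its signal exceeded the median of the mismatch probes plus 3 scaled median absolute deviations, which 62 human miRNAs did on the untreated array and 47, 61 and 74 did at 0.1, 1 and 10 nM. Net signal means a probe's intensity minus the median mismatch signal of its array. Over the 40 human miRNAs detected on all 4 arrays, net signals at 0.1, 1 and 10 nM were at the median 0.651, 0.985 and 0.999 times those without R1881. The control probe Bio B had net signals of 1276, 617, 1214.75 and 2550.5 at 0, 0.1, 1 and 10 nM. Those of the control probe Bio C were 1563.25, 931.75, 1235.5 and 1889. Both were lowest at 0.1 nM and highest at 10 nM, as was the net signal of miR-101 given below. The part of this in the miR-101 result was not tested. Of 4 epithelial miRNAs checked, miR-200a, miR-200b and miR-200c were detected on all 4 arrays and miR-141 on 3. Of 5 markers of stroma or endothelium 1, miR-214, was detected, on 1 array, and of 11 markers of blood, muscle, liver and neurons 0 were.

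MiR-26a was detected on all 4 arrays. Its net signals were 841.5, 707.25, 826.5 and 693.5 at 0, 0.1, 1 and 10 nM. The untreated and 1 nM arrays were close to each other, and the 0.1 and 10 nM arrays were lower. The 2-mismatch copy of its probe had net signals of -40.5, -50.5, -39.25 and -32.75 at 0, 0.1, 1 and 10 nM, so it lay below the typical mismatch probe on every array. The match probe was 3.66, 3.49, 4.38 and 3.93 times as bright as that copy in the same order.

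MiR-26b, its close relative, was also detected on all 4 arrays. Its net signals were 750.25, 456.25, 716 and 573.5 at 0, 0.1, 1 and 10 nM. Its lowest array was that at 0.1 nM, and 10 nM came next. The mismatch copy of its probe had net signals of -77.5, -77.5, -74.25 and -52.75 in order of dose, again below the typical mismatch probe. The match probe was 3.82, 2.92, 4.57 and 3.75 times as bright as its copy. MiR-26a differs from miR-26b by as many substitutions as the mismatch copies carry mismatched bases, but whether either probe also bound the other miRNA was not tested, and the labels do not say where the mismatched bases lie.

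MiR-101 was much dimmer. Its net signals were 87.25, 56.5, 139.25 and 224.75 at 0, 0.1, 1 and 10 nM. It was not well above background on the untreated and 0.1 nM arrays and was detected at 10 nM. At 1 nM its intensity of 435 exceeded the detection threshold of 434.9 by 0.118, so its detection there is marginal by this rule. With the threshold at the 95th percentile of mismatch probes instead, miR-101 was detected at 1 nM (435 against 386). By that rule it was also just detected untreated (458.75 against 458.6), but not at 0.1 nM (411.5 against 441.4). The mismatch copy had net signals of 44, 35.5, 7.25 and 2.75 in order of dose. The match probe thus exceeded its own mismatch copy by 43.25, 21, 132 and 222 intensity units, with the wider gaps at 1 and 10 nM. Over the arrays ordered 0.1, 0, 1 and 10 nM, in which the net signal of miR-101 goes up, the number of mismatch probes above the detection threshold also went up, at 3, 4, 7 and 16; the part of such array differences in the miR-101 result was not tested, and the mismatch copy of the miR-101 probe itself was not among the probes detected.

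**Figure D1:**
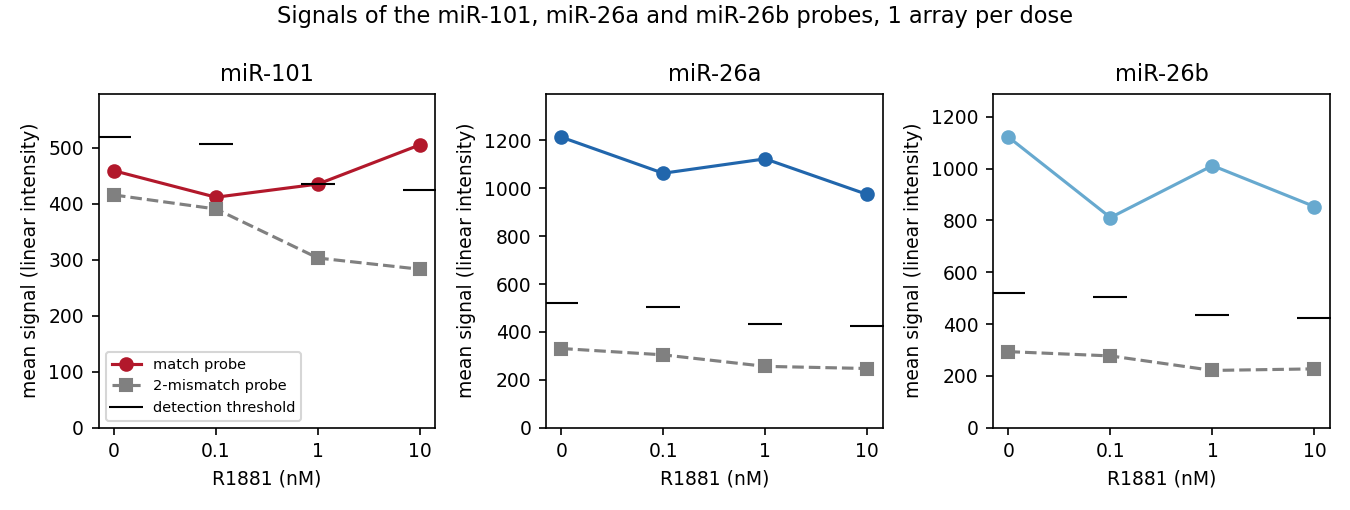
Mean signal on a linear intensity scale (y axis) against R1881 dose in nM (x axis) for the match probe (coloured points), its 2-mismatch copy (grey squares) and each array's detection threshold (black bars), 1 array per dose. MiR-26a and miR-26b lie above the threshold at every dose, while miR-101 lies below it at 0 and 0.1 nM, on it at 1 nM and above it at 10 nM.

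The relatives of miR-101 on the array gave no signal above background. MiR-144, an erythroid miRNA, had net signals of -4.5, -0.75, -3 and 22.75 at 0, 0.1, 1 and 10 nM. The single rodent probe of the same name group, rat miR-101b, had 23.25, 11.25, 18.75 and 41.5. None of these values passed detection, so the higher miR-101 signal at 10 nM has no second probe to set beside it.

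To compare doses, intensities were background-corrected with normexp and quantile normalised, and log2 ratios were taken to the untreated array. At 10 nM miR-26a stood at a normalised log2 level of 9.28, against 9.79 untreated, a log2 ratio of -0.51. MiR-26b stood at 9.07, against 9.58 untreated, a log2 ratio of -0.50. Both were lower than untreated under every scaling tried. MiR-101 had a measured level of 8.13 at 10 nM, against 7.62 untreated, but untreated miR-101 was not well above background. Its difference is therefore given as at least 1.08-fold higher at 10 nM, measured from the lowest level of a detected miRNA on the untreated array.

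With quantile normalisation and the offset of 50 neither miR-26a nor miR-26b reached 1.5-fold at 10 nM. Of the 79 miRNAs measured, meaning detected on at least 1 of the 2 arrays compared, 21.5% did so in either direction. That share counts plain ratios, also those of miRNAs not detected untreated. The bound for miR-101, at 1.08, did not reach 1.5-fold either, but it is another measure and cannot be set against that share. From the lowest ratio up, miR-26a ranked 11 and miR-26b ranked 12 of the 79. The median log2 ratio of the 79 was 0.00, with quartiles of -0.33 and 0.22 and an SD of 0.52. The ratios of miR-26a and miR-26b lay below the lower quartile and about as far from 0 as that SD. The SD includes miRNAs not detected untreated, such as miR-214 and miR-494. On the net scale miR-26a at 10 nM was 0.824 times its untreated value and miR-26b 0.764 times. Those ratios ranked 12 and 11 from the lowest among the 40 miRNAs detected on all arrays, whose median was 0.999.

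At 1 nM the miR-26 pair lay close to the untreated array. MiR-26a stood at 9.63, against 9.79 untreated (log2 ratio -0.16), and miR-26b at 9.52, against 9.58 untreated (log2 ratio -0.06). Median centring gave 0.044 for miR-26a and 0.0064 for miR-26b, so no direction can be given at this dose. MiR-101 had a measured level of 8.02 at 1 nM, against 7.62 untreated and not well above background there. No fold is given for it, since its level at 1 nM did not exceed the lowest level of a detected miRNA on the untreated array. Of the 66 measured miRNAs, 9.09% reached 1.5-fold in either direction, neither miR-26a nor miR-26b among them.

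At 0.1 nM the sign for the miR-26 pair depended on the scaling. Quantile normalisation placed miR-26a at 10.21, against 9.79 untreated (log2 ratio 0.41), and miR-26b at 9.79, against 9.58 untreated (log2 ratio 0.22). Net signals, in contrast, were lower than untreated, at 0.840 times for miR-26a and 0.608 times for miR-26b, beside 0.651 for the median of the 40 miRNAs detected throughout. Median centring used the median of the match probes of every species, most of them not detected. With it the log2 ratios were -0.25 and -0.65, and without normalisation they were -0.26 and -0.66. The median of all 65 measured miRNAs was -0.53 in both settings. Measured from that median, miR-26a stood at 0.27 and miR-26b at -0.13 on the log2 scale.

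The brightness rank of miR-26a among human probes was 14 at 0.1 nM, against 20 untreated, and that of miR-26b was 20, against 22 untreated. Quantile normalisation reads these ranks, and brightness also depends on the probe. With quantile normalisation neither of the pair reached 1.5-fold at 0.1 nM, where 26.2% of 65 miRNAs did. With median centring miR-26b did, as 1 of 28 lower by that much. MiR-101 was not detected on either of these 2 arrays, so no ratio is given for it.

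**Figure D2:**
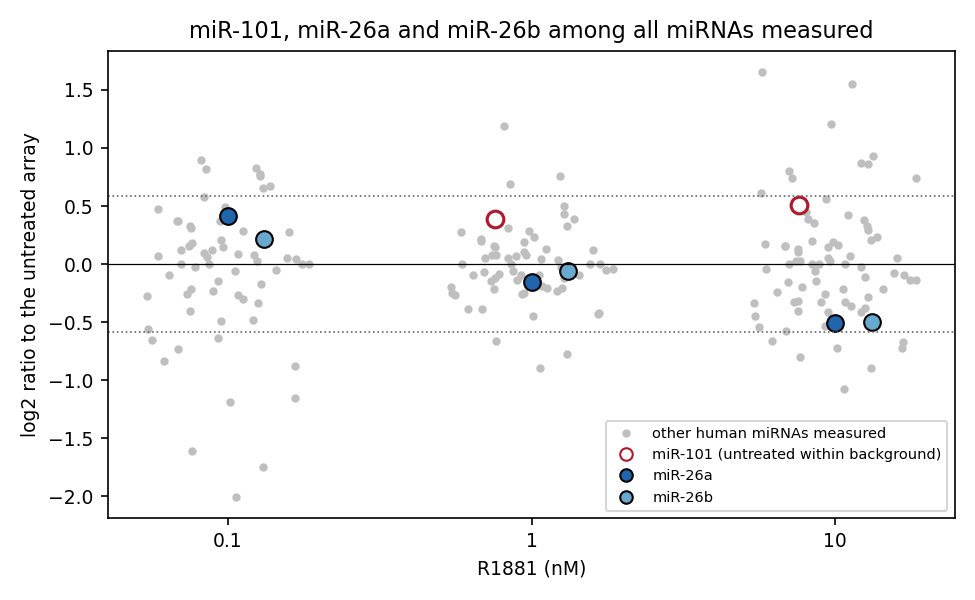
Log2 ratio to the untreated array (y axis, quantile-normalised) for the human miRNAs measured at each R1881 dose (x axis, nM), with miR-26a and miR-26b as filled coloured points, miR-101 as an open point because its untreated signal was not well above background, the other miRNAs in grey and dotted lines at 1.5-fold. MiR-26a and miR-26b lie inside the dotted lines at each dose, at -0.51 and -0.50 at 10 nM; the height of the open points is not a measured ratio.

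MiR-26a and miR-26b were set against each other by their log2 ratios, since levels of different probes cannot be compared. The log2 ratio of miR-26b minus that of miR-26a came to -0.20, 0.10 and 0.0070 for the doses of 0.1, 1 and 10 nM. At 0.1 nM it was negative under every scaling tried, and -0.40 with median centring. At 1 and 10 nM it was -0.04 and -0.09 with median centring, so its sign there is not settled.

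Between treated arrays, the pair was lower at 10 nM than at 1 nM. The log2 ratio of 10 to 1 nM was -0.35 for miR-26a and -0.44 for miR-26b, and without normalisation it was -0.23 and -0.28. For miR-101 it was 0.11, and 0.41 without normalisation. These steps do not involve the untreated array, and each has 1 array on either side. By the main detection rule miR-101 was only marginally detected at 1 nM.

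**Figure D3:**
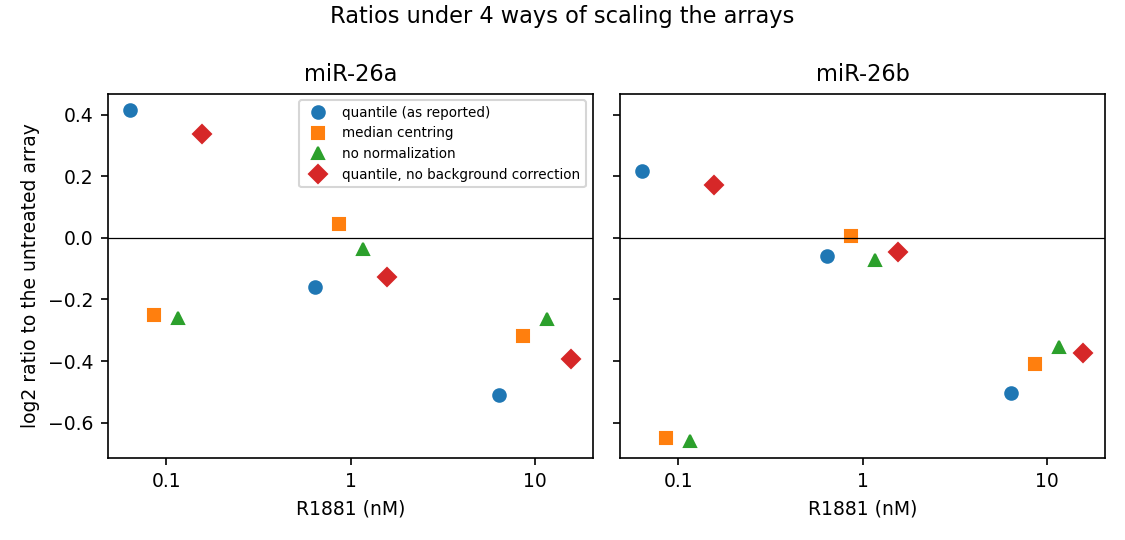
Log2 ratio to the untreated array (y axis) at each R1881 dose (x axis, nM) for miR-26a and miR-26b under quantile normalisation, median centring, no normalisation, and quantile normalisation without background correction. At 10 nM all 4 scalings give both miRNAs a ratio below 0, whereas at 0.1 nM miR-26a and miR-26b lie above 0 only with quantile normalisation.

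A straight line over the 4 dose steps was fitted to the 80 human miRNAs detected on at least 1 array with limma. Slopes per step were -0.21 ± 0.12 (SE) for miR-26a, -0.18 ± 0.10 for miR-26b and 0.23 ± 0.13 for miR-101 on the log2 scale. Each had a limma adjusted p of 0.514, and no call was made for any of the 3. Of all 80 miRNAs 0 (0%) were called by limma, 7 had an unadjusted p under 0.05, and the lowest adjusted p was 0.498. The fit leaves 2 residual degrees of freedom per miRNA, and the SEs and p-values also draw on variance that limma shares across the 80 miRNAs. That variance is the spread around a line and not between cultures. The slope of miR-101 includes its levels within the background at 0 and 0.1 nM.

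With the 3 treated arrays as a single group against the untreated one, the limma log2 differences were -0.08 ± 0.45 (SE) for miR-26a, -0.11 ± 0.36 for miR-26b and 0.16 ± 0.48 for miR-101. The limma adjusted p was 0.963 for each, and 0 of 80 miRNAs (0%) were called, with 0 at an unadjusted p under 0.05. The untreated side of this fit is 1 array, and its 2 residual degrees of freedom per miRNA are the spread among 3 different doses. With variance again shared across the miRNAs, these errors and p-values measure differences between doses and not between cultures. Each standard error exceeds its difference, and miR-26a and miR-26b had ratios of opposite sign at 0.1 and 10 nM by quantile normalisation. Without the 0.1 nM array the differences were -0.33, -0.28 and 0.45 for miR-26a, miR-26b and miR-101. The only spread left in that fit is between the 1 and 10 nM arrays.

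Profiles were compared over the 4 arrays as the root mean square difference of log2 levels, each profile centred on its own mean. Among the other 39 miRNAs detected throughout, the profiles nearest to miR-26a were those of miR-191 at 0.08, miR-26b at 0.11 and miR-210, the miRNA induced by hypoxia, at 0.11. The median distance from miR-26a was 0.25 and the largest was 0.79. Nearest to miR-26b were miR-191 at 0.05, miR-23a at 0.06 and miR-103 at 0.08, with a median distance of 0.22, and miR-26a ranked 5. These distances describe 4 arrays and share their normalisation.

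MiR-191 had net signals of 2118.75, 1932.75, 1909.25 and 1472.25 at 0, 0.1, 1 and 10 nM. Its lowest net signal was at 10 nM, as for miR-26a, whereas that of miR-26b was at 0.1 nM. The range of log2 levels over the 4 arrays was 0.92 for miR-26a and 0.72 for miR-26b, beside a median of 0.58 for the 40 miRNAs, of which 34 had a narrower range than miR-26a and 25 a narrower one than miR-26b. No profile was compared for miR-101, which was not detected throughout.

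**Figure D4:**
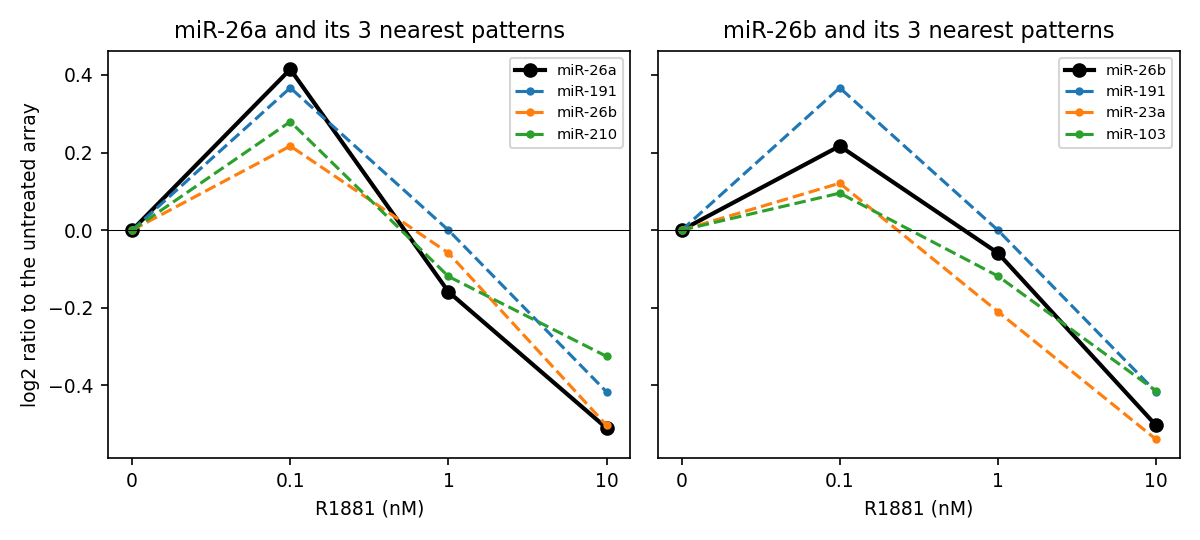
Log2 ratio to the untreated array (y axis, quantile-normalised) against R1881 dose in nM (x axis) for miR-26a and miR-26b (black) and the 3 miRNAs with the nearest profiles (dashed). Each of these profiles has its highest point at 0.1 nM and its lowest at 10 nM on this scale; the position at 0.1 nM depends on the scaling.

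Of 10 other miRNAs described as acting on EZH2 mRNA in various cells, all had probes. Detection was reached by 7 of them somewhere in the dose series and by 4 at every dose, beside 80 and 40 of all 455 human miRNAs. At 10 nM the 7 measured had a median log2 ratio of 0.00, as did all 79 miRNAs. The median of the 7 is the ratio of let-7a, whose quantile-normalised level was 12.45 on every array. Past 1.5-fold at 10 nM was 1 of the 7, beside 21.5% of the 79. That one was miR-214, described as repressing EZH2 in differentiating muscle, with net signals of 11.25, 43.5, 36.75 and 377 at 0, 0.1, 1 and 10 nM. Like miR-101 it was not detected untreated and was detected at 10 nM. The 10 nM array detected 74 of 455 human miRNAs and 16 mismatch probes, against 62 and 4 untreated, so other probes came out of background there too. MiR-214 was at least 1.53-fold higher at 10 nM than untreated. It is also 1 of 5 stromal and endothelial markers, whose summed net signal was 433 at 10 nM, against 32.25 untreated; the other 4 were not detected on any array.

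The other 6 measured members lay within 1.5-fold at 10 nM. Let-7a, of the let-7 family of differentiation-linked miRNAs, had net signals of 5288, 5341.75, 5384.5 and 5975.25 at 0, 0.1, 1 and 10 nM. Let-7b, of the same family, had net signals of 1024, 902.25, 1019.25 and 1167.25 at 0, 0.1, 1 and 10 nM, and let-7c had 2860, 2726.75, 2822.75 and 2653.75. At 0.1 nM these 3 kept more of their untreated net signal than the median of 0.651 given above. MiR-25, of a cluster related to miR-17-92, had 346.25, 229.75, 339.25 and 334.5, with its lowest array at 0.1 nM. MiR-98, another let-7 relative, had 212, 139, 244.75 and 269, and miR-30d was detected at 10 nM alone, at 188.75.

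MiR-124a, miR-137 and miR-138 were not detected. At 0.1 and 1 nM 5 members were measured, with median log2 ratios of 0.07 and 0.00 beside 0.04 and -0.04 for all measured miRNAs. The 0.00 at 1 nM is again the ratio of let-7a. Of the 5, 0 were past 1.5-fold, beside 26.2% of 65 miRNAs at 0.1 nM and 9.09% of 66 at 1 nM. In the dose fit 0 of the 7 members tested were called by limma in either direction, as were 0 of all 80 (0%); miR-214 had an unadjusted p of 0.0388 and an adjusted p of 0.498. Of the EZH2-linked miRNAs looked at here, miR-26a, miR-26b, let-7a, let-7b, let-7c and miR-25 were detected at every dose.

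The authors' deposited value table holds net signals and leaves cells under about 1.5 times the median mismatch signal empty. It lists miR-101 at 10 nM alone, at 224.75. At 1 nM the intensity of miR-101 was 1.47 times that median. For miR-26a the table's log2 ratios to untreated were -0.25, -0.03 and -0.28 at 0.1, 1 and 10 nM, and for miR-26b they were -0.72, -0.07 and -0.39. In that table, which has no scaling between arrays, both were lower than untreated at every dose.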

How the data were processed

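Per the file headers, each of the 4 arrays has a deposited table of mean signals, an intensity on a linear scale for each of 1406 probes; no background step, scanner or image software is given in the sources used here. The table of processed values deposited by the authors differs from those intensities by a constant per array, which equalled each array's median mismatch signal (371.5, 355, 295.75 and 280.25 from 0 to 10 nM); no log step or scaling between arrays was found in it, and its stated direction relative to untreated was not seen. Its column medians were 489, 377.75, 493 and 333.25.

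Signals were corrected with normexp (offset 50, probes listed at 0 left out) in limma 3.58.1 under R 4.3.3, and quantile normalisation was run over the match probes of every species. Detection used mismatch probes above 0. Fits used lmFit and eBayes, two-sided, with Benjamini-Hochberg adjustment at 0.05 over 80 miRNAs, and were tested on simulated data. Calls between single arrays mean 1.5-fold or more and have no test; the number of arrays limits precision.

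Named miRNAs were the 3 members, probes of the same names in rodents, seed relatives, a list of 10 others linked to EZH2, marker lists, and the 3 nearest profiles. Members and lists were chosen with earlier results of these data known. Alternatives covered background, scaling, offset, filters, detection, the fold threshold, the value table and leaving out the 0.1 nM array.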

Additional observations from a re-analysis of the deposited data

How the results depend on the processing

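No paired analysis was possible because each dose has 1 array and the labels carry no replicate numbers. At 10 nM miR-26a and miR-26b were lower than untreated in all 6 alternatives, with log2 ratios of -0.53 to -0.26 and -0.63 to -0.35. MiR-26b was past 1.5-fold at 10 nM with its own mismatch signal subtracted (-0.63). For miR-101 the untreated signal was not well above background. The size of its log2 ratio therefore follows the handling of the background and is no measure of change. At 10 nM it came to 0.50 as processed here and 0.27 without background correction. It was 0.64 with median centring, 0.70 without normalisation and 0.59 with an offset of 16. With its own mismatch signal subtracted it was 1.78. That setting put untreated miR-101 at the floor of 50 and gave 1.48 at 1 nM. At 0.1 nM miR-26a and miR-26b turned sign with median centring (-0.25 and -0.65) and no normalisation (-0.26 and -0.66). They also did with the authors' value table (-0.25 and -0.72), which has no scaling between arrays. At 1 nM they turned sign with median centring (0.044 and 0.0064). The scaling itself makes the difference at 0.1 nM, where the median of all measured miRNAs was 0.04 with quantile normalisation. That median was -0.53 with median centring and also without normalisation, so median centring hardly changed the scale there.

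Neither limma fit called any miRNA in any of 9 alternatives, and no slope or difference of the 3 turned sign. Slopes ran from -0.22 to -0.06 for miR-26a, -0.23 to -0.05 for miR-26b and 0.12 to 0.68 for miR-101 (background levels included), with limma adjusted p of 0.198 to 0.897, 0.238 to 0.912 and 0.133 to 0.839. The lowest adjusted p of any miRNA was 0.061 for the slope, without the 0.1 nM array, and 0.0569 for treated against untreated, with own mismatch signals subtracted.

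At 1.5-fold, the background counts were 7 higher and 10 lower of 65 miRNAs at 0.1 nM. They were 3 higher and 3 lower of 66 at 1 nM, and 10 higher and 7 lower of 79 at 10 nM. Counts that differed from these by over 1.5 times were as follows, out of the same totals unless others are given. Without background correction there were 3 higher at 0.1 nM, 6 lower at 0.1 nM, 1 higher at 1 nM, 1 lower at 1 nM, 4 higher at 10 nM, 2 lower at 10 nM. With median centring there were 0 higher at 0.1 nM, 28 lower at 0.1 nM, 5 higher at 1 nM. Without normalisation there were 0 higher at 0.1 nM, 28 lower at 0.1 nM. With own mismatch signals subtracted there were 18 of 63 lower at 0.1 nM, 8 of 64 lower at 1 nM. At 10 nM there were 14 of 76 lower. Over all 455 human miRNAs there were 27 higher at 0.1 nM, 30 lower at 0.1 nM. Of the same 455, 7 were higher at 1 nM, 16 lower at 1 nM, 17 higher at 10 nM, 25 lower at 10 nM. Over the 40 miRNAs detected on all 4 arrays there were 4 higher at 0.1 nM, 3 lower at 0.1 nM. Of the same 40, 1 was higher at 1 nM, 1 lower at 1 nM, 2 higher at 10 nM, 4 lower at 10 nM. With detection at the 95th percentile of mismatch probes there were 14 of 118 higher at 0.1 nM. In the authors' value table there were 0 of 38 higher at 0.1 nM, 21 of 38 lower at 0.1 nM. At 2-fold there were 0 higher at 0.1 nM, 5 lower at 0.1 nM, 1 higher at 1 nM, 0 lower at 1 nM, 3 higher at 10 nM, 1 lower at 10 nM. These thresholds rest on single arrays, and signal over background limits miR-101 at 0 and 0.1 nM.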
